A study of Paralichthys olivaceus with 6 samples.

Results

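Expression of 5 genes of melanin synthesis was followed in the ocular-side skin of albino and normal Japanese flounder (*Paralichthys olivaceus*). They were the tyrosinase gene TYR (GS_020975), a pair of tyrosinase-related protein 1 genes (TYRP1 GS_009038 and TYRP1 GS_012029), OCA2 (GS_017193) and SLC45A2 (GS_012916). The members were picked by their gene IDs, 5 of the 22498 genes in the tables, and all 5 had enough reads for the test of differential expression. Gene names follow the study's tables, which assign them by similarity to known proteins elsewhere. Which of the flounder genes corresponds to tyrp1a and which to tyrp1b of other fish was not determined, and no genome coordinates or sequences were used here.

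The libraries came from 3 albino fish, named PO_alb1 to PO_alb3 by the study, and 3 normal fish, named PO_con1 to PO_con3 and labelled wild type. All 6 fish shared an age of 5 months and came from a single full-sib family, and 1 library was made from the total RNA of the ocular-side skin of each fish. Fish are numbered below as in these names. The labels give no causal allele for the albino fish. Skin is a mixture of cell types, so in these bulk samples fewer pigment cells and less RNA per pigment cell cannot be told apart.

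Melanin is made inside melanosomes, the pigment organelles of melanophores, which are the black pigment cells of fish. TYR oxidises tyrosine to dopaquinone and is the rate-limiting enzyme of the pathway. TYRP1 is a related melanosome membrane protein that acts in later oxidation steps in mouse and stabilises TYR. OCA2 is a melanosome membrane protein needed for a chloride current, and SLC45A2 is a membrane transporter. In mammals both help to keep the melanosome lumen at a pH at which TYR is active, and loss of TYR, TYRP1, OCA2 or SLC45A2 causes forms of oculocutaneous albinism in humans.

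The libraries held 17905084 to 18631484 counted reads in albino fish and 18232951 to 20025047 in normal fish. RPKM, in which reads are scaled by gene length and library total, was used for levels, and edgeR's quasi-likelihood test on the counts, scaled by the trimmed mean of M-values (TMM), for differences. A gene was called at a Benjamini-Hochberg adjusted p under 0.05 over the 16260 genes tested. TMM factors ranged from 0.791 in PO_alb3 to 1.272 in PO_con3, so levels in PO_con3 are lower on the TMM scale than by RPKM, relative to the other fish. A single read was worth 0.0216 to 0.0377 RPKM for these genes in albino libraries. Intervals given for single libraries cover counting error only.

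Of the 5 genes, 4 fell in albino skin and SLC45A2 did not pass the test. Of all genes tested, 0.91% were called lower. The study, which used DESeq on the same libraries, listed all 5 genes as lower, SLC45A2 among them. It also measured TYR and TYRP1 by qRT-PCR and described similar levels. The median log2 fold change, albino over normal, was -4.89 for the 5 genes and 0.01 for all genes tested. All 5 had every albino value below every normal value on the TMM scale, which was the case for 7.47% of all genes tested. The study selected its pigment genes on these same libraries, so these counts are not independent evidence of direction.

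TYR was nearly absent from albino skin. It had 0, 1 and 3 reads in albino fish 1 to 3, against 48, 39 and 82 reads in normal fish 1 to 3. In RPKM this was 0, 0.0362 and 0.112 in albino fish, against 1.62, 1.44 and 3.03 in normal fish. The groups did not overlap, and the lowest normal level was 12.8 times the highest albino level. The log2 fold change of TYR was -5.06 (SE 0.62, 95% interval -6.50 to -3.62, adjusted p = 0.0091 from edgeR). The fitted value moved to -6.43 without PO_alb3, which held 3 of the 4 albino reads, and to -4.46 without PO_alb1. The call was lost without PO_alb2 (adjusted p = 0.052, against 0.014 at the lowest with another library left out).

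Both TYRP1 genes were the most abundant of the 5 in every normal fish. TYRP1 GS_012029 had 10, 6 and 11 reads in albino fish 1 to 3, against 274, 247 and 446 reads in normal fish. Its RPKM was 0.357, 0.206 and 0.388 in albino fish, against 8.74, 8.60 and 15.6 in normal fish. The 3 albino fish were close to each other, with a coefficient of variation of 30.8%, against 36.5% in normal fish. Its log2 fold change was -4.93 (SE 0.31, 95% interval -5.63 to -4.22, adjusted p = 4e-04), the lowest p of the 5 genes and the 7th lowest of all genes tested. It was called without each library in turn, with log2 fold changes of -5.24 to -4.63.

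TYRP1 GS_009038 fell as far on average, but unevenly among the albino fish. It had 23, 3 and 2 reads in albino fish 1 to 3, against 259, 275 and 419 reads in normal fish. The RPKM was 0.802, 0.101 and 0.0690 in albino fish, against 8.07, 9.36 and 14.3 in normal fish. Albino fish 1 thus held 23 of the 28 albino reads, and the coefficient of variation among albino fish was 128%, against 31.3% among normal fish. The log2 fold change was -4.89 (SE 0.56, 95% interval -6.18 to -3.60, adjusted p = 0.0065). Without PO_alb1 it was -6.68, and it was called without each library in turn (adjusted p at most 0.043).

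OCA2 was the least abundant of the 5 genes in every normal fish. It had 2, 1 and 1 reads in albino fish 1 to 3, against 25, 12 and 33 reads in normal fish. The RPKM was 0.0450, 0.0216 and 0.0223 in albino fish, against 0.503, 0.264 and 0.730 in normal fish. The groups did not overlap, but normal fish 2 had 12 reads and the albino fish 1 or 2 reads each. The 95% counting intervals of normal fish 2 (27.3% to 92.4% of the mean of the normal fish) and albino fish 1 (1.09% to 32.6%) overlapped. The log2 fold change of OCA2 was -3.82 (SE 0.57, 95% interval -5.14 to -2.50, adjusted p = 0.024). The call stood without PO_con2 (adjusted p = 0.029) and was lost without any other single library (0.069 to 0.12).

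SLC45A2 had the smallest difference and kept the most reads relative to normal skin. It had 8, 2 and 6 reads in albino fish 1 to 3, against 22, 41 and 54 reads in normal fish. The RPKM was 0.261, 0.0627 and 0.194 in albino fish, against 0.641, 1.31 and 1.73 in normal fish. Normal fish 1 was the lowest of its group, at 2.46 times the level of albino fish 1, the highest albino fish. Their 95% counting intervals overlapped, at 32.8% to 79.2% and 9.19% to 41.9% of the mean of the normal fish. The log2 fold change was -2.62 (SE 0.49, 95% interval -3.76 to -1.49), and it did not pass over all genes (adjusted p = 0.064). It passed in only 2 of 8 alternative fits, with DESeq2 (adjusted p = 8e-04) and with no filter on low counts (adjusted p = 0.047). It was not called with any library left out (adjusted p = 0.058 to 0.28 from edgeR).

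**Figure D1:**
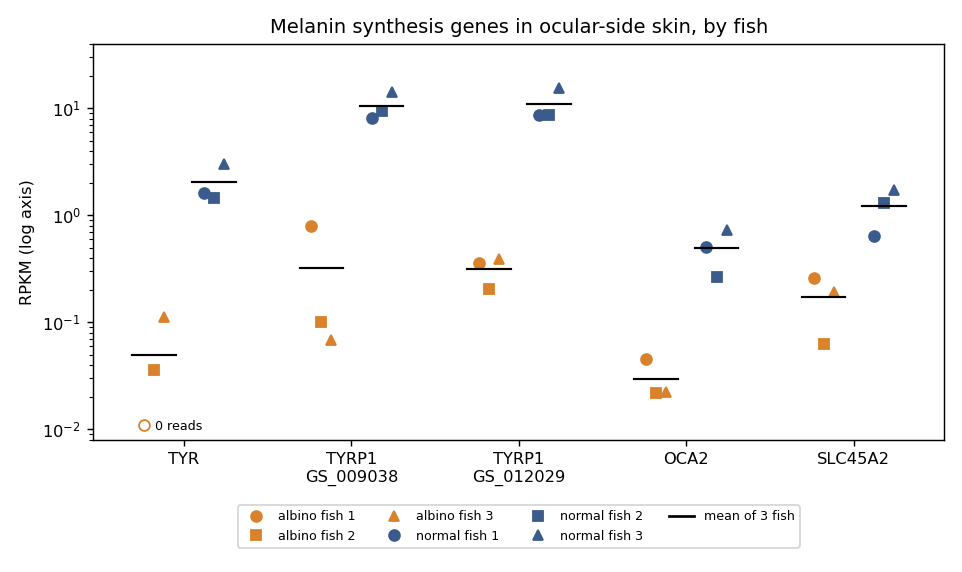
RPKM (log axis) of the 5 genes in each albino fish (orange, left) and each normal fish (blue, right), with a bar at the mean of 3 fish; the open symbol marks TYR in albino fish 1, which had 0 reads and has no place on a log axis. Every albino value lies below every normal value of the same gene, and the albino values of TYRP1 GS_009038 range from 0.0690 to 0.802.

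The order of the 5 genes by RPKM was not the same in the groups. In albino fish the means were 0.324 ± 0.414 for TYRP1 GS_009038, 0.317 ± 0.0976 for TYRP1 GS_012029, 0.172 ± 0.101 for SLC45A2, 0.0494 ± 0.0571 for TYR and 0.0296 ± 0.0133 for OCA2 (SD, n = 3). In normal fish the means were 11.0 ± 4.01 for TYRP1 GS_012029, 10.6 ± 3.31 for TYRP1 GS_009038, 2.03 ± 0.876 for TYR, 1.23 ± 0.548 for SLC45A2 and 0.499 ± 0.233 for OCA2 (SD, n = 3). In normal fish the TYRP1 genes did not differ beyond their spread, with GS_012029 the higher in normal fish 1 and 3 and GS_009038 in normal fish 2. TYR, SLC45A2 and OCA2 followed in this order in all 3 normal fish, although the ranges of TYR and SLC45A2 overlapped between fish. By RPKM, SLC45A2 was above TYR in all 3 albino fish and below it in all 3 normal fish. In normal fish 2 TYR stood at 1.44 RPKM from 39 reads and SLC45A2 at 1.31 from 41 reads, so their order was not resolved. Nor was that of SLC45A2 (22 reads) and OCA2 (25 reads) in normal fish 1. The albino order rested on 8 against 0, 2 against 1 and 6 against 3 reads in albino fish 1 to 3. The order of the other genes differed from one albino fish to the next, at read numbers too low to separate most neighbours.

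PO_con3 had the highest RPKM of all 5 genes among the normal fish. The highest normal level was 1.78 to 2.77 times the lowest by RPKM, and 1.24 to 2.24 times the lowest on the TMM scale. The RPKM of the 5 genes summed to 1.46, 0.427 and 0.785 in albino fish 1 to 3, against 19.6, 21.0 and 35.5 in normal fish. These sums correspond to 43, 13 and 23 reads in albino fish, against 628, 614 and 1034 reads in normal fish.

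Residual expression was measured as the RPKM of each albino fish in percent of the mean of the 3 normal fish. For TYR it was 0%, 1.78% and 5.52% in albino fish 1 to 3. In albino fish 1, which had no TYR read, a floor of 3 reads stood at 5.57% of the normal mean. The exact Poisson 95% upper limits of TYR were 6.85%, 9.94% and 16.1% in albino fish 1 to 3. The 3 fish were thus not separable at this depth. For TYRP1 GS_012029 the residual level was 3.25%, 1.87% and 3.53%, with exact Poisson 95% intervals that overlapped and spanned 0.687% to 6.32% together. TYRP1 GS_009038 stood at 7.57% (4.80% to 11.4%) in albino fish 1, against 0.949% (0.196% to 2.77%) in albino fish 2 and 0.651% (0.0789% to 2.35%) in albino fish 3. This was the only one of the 5 genes in which the counting interval of an albino fish lay apart from those of the other albino fish. OCA2 stood at 9.03%, 4.34% and 4.47%, with upper limits of 24.2% to 32.6%. SLC45A2 stood at 21.3%, 5.11% and 15.8%, with intervals from 0.619% to 41.9% in all.

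**Figure D2:**
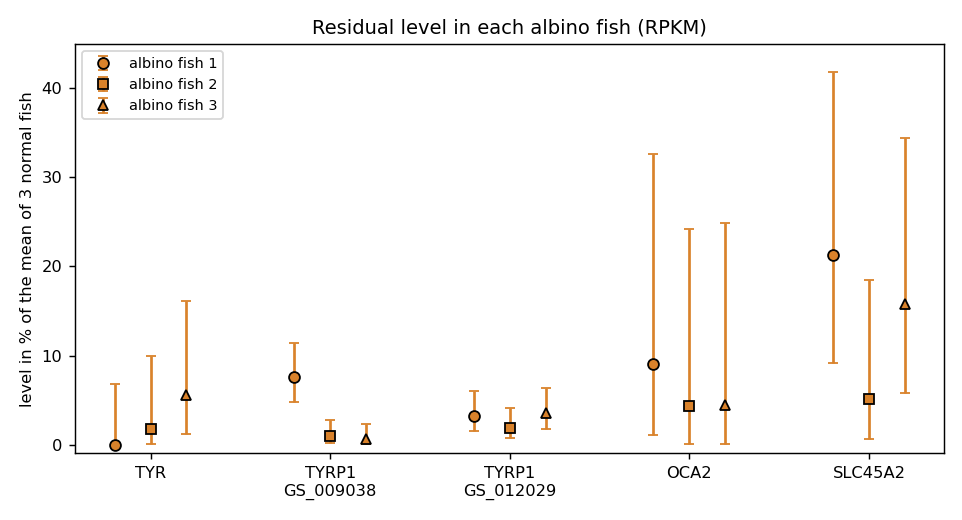
RPKM of each albino fish in percent of the mean RPKM of the 3 normal fish, for each gene; bars are exact Poisson 95% intervals of the albino read count and leave out the spread of the normal fish. TYRP1 GS_009038 in albino fish 1 (7.57%) lies above the intervals of albino fish 2 and 3, and the SLC45A2 values reach 21.3%.

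Averaged over the 3 albino fish, the residual level was 2.43% for TYR, 3.06% for TYRP1 GS_009038, 2.88% for TYRP1 GS_012029, 5.94% for OCA2 and 14.1% for SLC45A2. On the TMM scale the averages were 3.13%, 3.21%, 3.36%, 6.55% and 16.5% for the same genes in this order. In pooled reads adjusted for library totals, SLC45A2 was 7.06 times higher in normal than in albino libraries (95% counting interval 4.17 to 12.8). The same ratio was 34.6 (23.6 to 52.7) for TYRP1 GS_012029 and 32.9 (22.6 to 49.7) for TYRP1 GS_009038. The ratios of TYR, 40.8 (15.6 to 151), and OCA2, 16.9 (6.31 to 63.7), rested on 4 albino reads each and overlapped those of the TYRP1 genes. The interval of SLC45A2 did not overlap those of TYR and the TYRP1 genes, in counting error alone. The edgeR 95% intervals of the log2 fold change also take in the spread between fish. There SLC45A2 (-3.76 to -1.49) overlapped TYR (-6.50 to -3.62) and TYRP1 GS_009038 (-6.18 to -3.60), but not TYRP1 GS_012029 (-5.63 to -4.22).

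The balance of the TYRP1 genes differed between single albino fish and was near even in each normal fish. Pooled over the albino fish, GS_009038 had 28 reads and GS_012029 had 27. By RPKM, GS_009038 made up 69.2%, 32.8% and 15.1% of the TYRP1 level in albino fish 1 to 3, against 48.0%, 52.1% and 47.9% in normal fish. By reads the share was 69.7% of 33 reads (exact Clopper-Pearson 95% interval 51.3% to 84.4%) in albino fish 1, 33.3% of 9 reads (7.49% to 70.1%) in albino fish 2 and 15.4% of 13 reads (1.92% to 45.4%) in albino fish 3. The intervals of albino fish 1 and 3 did not overlap. In normal fish the read shares were 48.6% of 533, 52.7% of 522 and 48.4% of 865 reads, with intervals that together spanned 44.3% to 57.0%. The mean RPKM share was 39.0% ± 27.6 in albino and 49.3% ± 2.41 in normal fish (SD, n = 3). The difference of -10.3 percentage points was smaller than the spread among albino fish (exact two-sided permutation test, p = 0.7, where 0.1 is the smallest p that 3 against 3 fish allow), and it was 1.69 without PO_alb3. How the authors counted reads that map to both paralogs is not given in the sources used here.

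**Figure D3:**
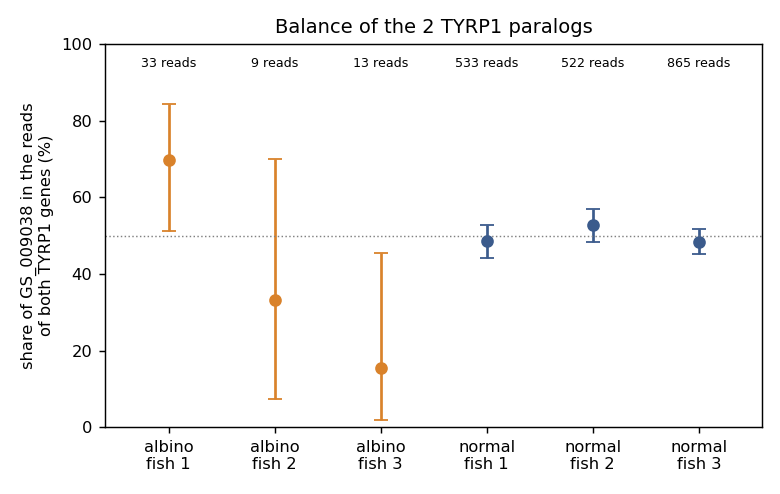
Share of TYRP1 GS_009038 in the reads of both TYRP1 genes for each fish, with exact Clopper-Pearson 95% intervals and the number of reads above; the dotted line marks equal shares. Normal fish lie between 48.4% and 52.7%, while albino fish 1 (69.7%) and albino fish 3 (15.4%) lie on opposite sides of them.

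Relative to the TYRP1 genes, TYR spanned a wider range among albino fish, at few reads, than among normal fish. Its RPKM was 0%, 11.8% and 24.5% of the summed TYRP1 RPKM in albino fish 1 to 3, from 0, 1 and 3 TYR reads, against 9.62%, 7.99% and 10.1% in normal fish. The albino ratios lay on both sides of the normal ones. The summed TYRP1 reads were 33, 9 and 13 in albino fish 1 to 3, and the wider albino range was not tested against counting error. The share of TYR in the sum of the 5 genes had a mean of 7.58% ± 7.17 in albino and 7.89% ± 0.916 in normal fish (SD, n = 3).

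Shares are computed from the same RPKM as the residual levels above, so they are not a separate finding. In the make-up of the 5 transcripts, SLC45A2 took a larger share in every albino fish than in any normal fish. Its share of the summed RPKM was 17.8%, 14.7% and 24.7% in albino fish 1 to 3, against 3.28%, 6.23% and 4.88% in normal fish. The groups did not overlap, and the means differed by 14.3 percentage points (exact two-sided permutation test, p = 0.1, the smallest possible, and 0.25 after Benjamini-Hochberg adjustment over the 5 genes). The share of OCA2 was 3.07%, 5.07% and 2.84% in albino fish, against 2.57%, 1.26% and 2.06% in normal fish, also without overlap (p = 0.1, adjusted p = 0.25 in the same exact permutation test), from 4 albino reads. Both TYRP1 genes together held 79.1%, 71.8% and 58.2% of the sum in albino fish, against 85.9%, 85.7% and 84.5% in normal fish. The single shares of TYR and of each TYRP1 gene overlapped between the groups (adjusted p of 0.667 to 1 in the exact permutation test). The mean share of TYRP1 GS_009038 was 29.0% ± 23.5 in albino and 42.1% ± 2.23 in normal fish (SD, n = 3), a difference of -13.1 percentage points that was -25.9 without PO_alb1 and -2.96 without PO_alb3.

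**Figure D4:**
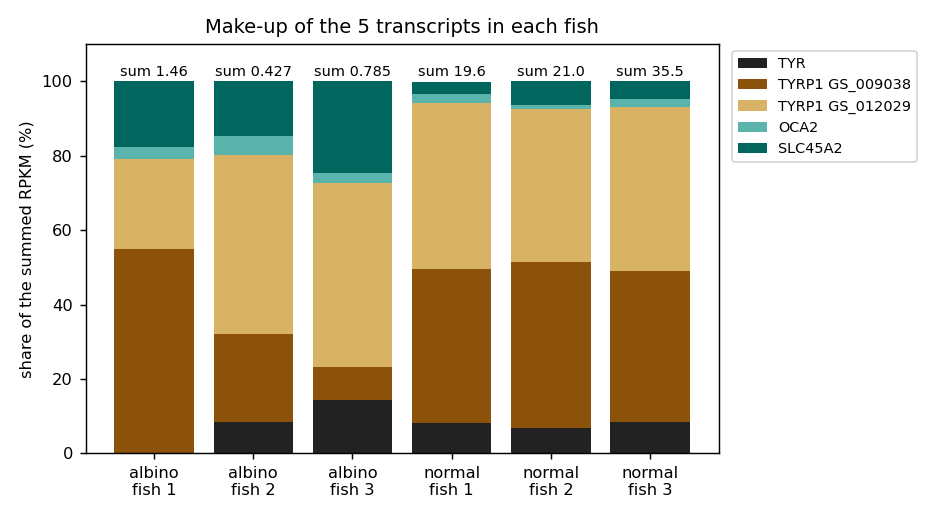
Share of each gene in the summed RPKM of the 5 genes, one bar for each fish, with the summed RPKM written above. The SLC45A2 segment takes 14.7% to 24.7% in albino fish and 3.28% to 6.23% in normal fish.

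Within the skin transcriptome of normal fish the TYRP1 genes ranked above the median gene, and TYR, SLC45A2 and OCA2 below it. Among all 22498 genes ranked from the highest RPKM down, TYRP1 GS_012029 was at rank 16406, 17040 and 15794 in albino fish 1 to 3, against 5922, 6730 and 4855 in normal fish. TYRP1 GS_009038 was at 15273, 17855 and 17906 in albino fish, against 6279, 6317 and 5252 in normal fish. The TYRP1 genes were thus within the upper 30% of all genes in normal skin, with 26.3% and 27.9% of genes above GS_012029 and GS_009038 in the median normal fish. TYR was among the 3371 genes without a read in albino fish 1 and at rank 18795 and 17348 in albino fish 2 and 3, against 13230, 14163 and 12717 in normal fish. SLC45A2 was at rank 16797, 18334 and 16726 in albino fish, against 15379, 14398 and 14351 in normal fish. OCA2 was at 18633, 19026 and 18716 in albino fish, against 15798, 16941 and 15969 in normal fish. By size of change, all 5 were among the 94 lowest log2 fold changes of the 16260 genes tested, with TYR at place 38, TYRP1 GS_012029 at 40, TYRP1 GS_009038 at 41, OCA2 at 60 and SLC45A2 at 94.

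Other melanosome genes listed by the study also fell. The study picked them on these same libraries, so their directions are not independent evidence. From a list of 6 taken from the study's tables, 5 fell, and the median log2 fold change of the 6 was -2.07. Of all genes tested, 0.91% were called lower. MYO5A, a motor of melanosome transport, fell just short of passing (log2 fold change -0.97, adjusted p = 0.05 from edgeR). It passed with RLE scaling (adjusted p = 0.049) and DESeq2 (0.0011). It did not pass with library totals alone (0.31) or with any library left out (0.091 to 0.19). PMEL, which forms the fibrils of the melanosome matrix, was changed by -5.72 (log2, SE 0.56, adjusted p = 0.0028), with 4, 3 and 4 reads in albino fish, against 325, 114 and 230 reads in normal fish. The melanosome protein gene MLANA was changed by -4.23 (SE 0.36, adjusted p = 0.0014), or -4.87 without PO_alb1. Melanoregulin (MREG), the channel gene TRPM1 and the protease gene BACE2, which cleaves PMEL in mouse, had log2 fold changes of -2.19, -1.95 and -1.16. Leaving out PO_con2 removed the call of MREG (adjusted p = 0.066), and leaving out any library except PO_alb1 removed that of BACE2 (0.071 to 0.13). The members' fold changes thus lay between PMEL and MREG, with SLC45A2 nearest to MREG.

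Genes of regulators and receptors from the study's tables were measured in the same fit. They too were picked on these same libraries, so their directions are not independent evidence, and 0.91% of all genes tested were called lower. Of 8 regulators and receptors, 7 fell and the melanocortin receptor gene MC1R did not pass (log2 fold change -2.70, adjusted p = 0.094), with a median of -2.43, also with genes without albino reads set to their bound. MITF, the transcription factor that drives TYR and TYRP1 in mammals, had 1 read in all albino libraries against 113 in the normal libraries, a depth-adjusted ratio, normal over albino, of 109 (95% counting interval 19.2 to 4350). SOX10, a transcription factor of neural crest cells, was changed by -1.73 on the log2 scale with an SE of 0.17 (adjusted p = 0.0027), and the receptor gene KIT by -2.16. MC5R had 0 albino reads against 91 normal reads and was at least 29.3-fold lower, with 3 reads over the group as the floor. MCHR2, a receptor of melanin-concentrating hormone, had a log2 fold change of -3.21, and the endothelin receptor genes EDNRB GS_012647 and GS_018359 had -1.33 and -1.10. With a library left out, 2 (without PO_con2) to 5 (without PO_con1) of the 8 were called, against 3 to 5 of the 6 melanosome genes. SOX10 and MITF were called in every such fit, and KIT in none (adjusted p = 0.061 to 0.17). MC1R, not called, moved to -3.61 without PO_alb1. With library totals alone in place of TMM, 3 of the 8 were called.

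**Figure D5:**
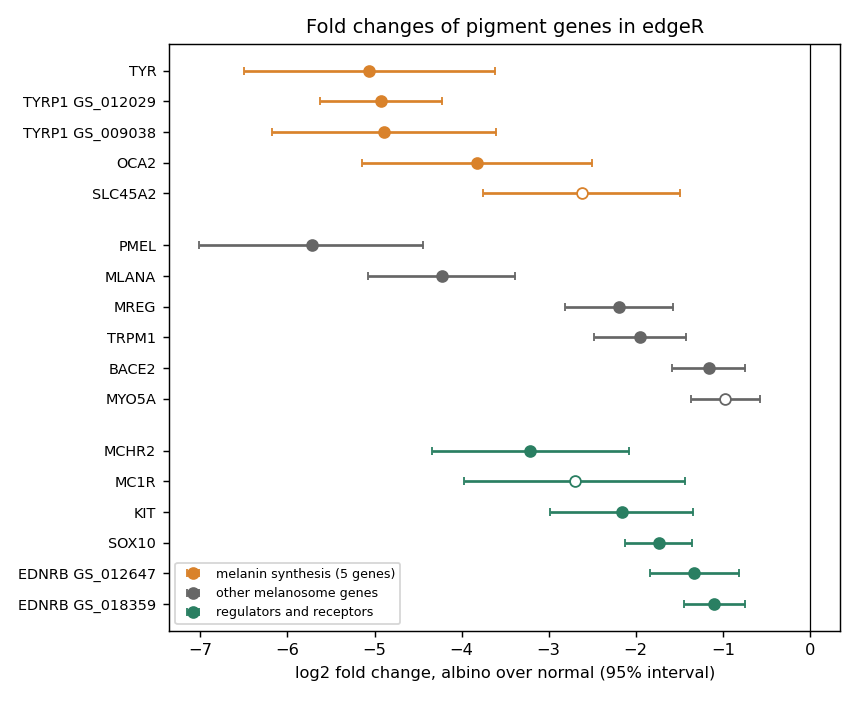
Log2 fold change, albino over normal, from edgeR with its 95% interval for the 5 genes (orange), 6 other melanosome genes (grey) and 6 regulators and receptors (green); open symbols did not pass an adjusted p of 0.05. MITF and MC5R, with 1 and 0 albino reads, are left out, and the 5 genes range from -5.06 to -2.62.

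Levels of marker genes of melanophores and other cell types were set beside those of the 5 genes. All of these markers come from the study's tables of genes that it picked on these same libraries, so their directions and the separation of their sums are not independent evidence, and other keratin or muscle genes were not examined here. Of the genes described above, PMEL, MLANA, TRPM1, SOX10, MITF and KIT served as melanophore markers. Whether other cells of the skin also held RNA of these genes was not tested. None was at 0 in all albino fish, and their summed level on the TMM scale was 8.67 to 11.1 CPM (counts scaled to a common library size) in albino and 49.5 to 65.4 in normal fish. The largest parts of the albino sum were SOX10 and TRPM1, with means of 4.43 and 3.13 CPM, against 14.8 and 12.1 in normal fish. The albino means were lower for PMEL (0.216 against 11.5), MLANA (0.797 against 15.1), MITF (0.0178 against 1.82) and KIT (0.937 against 4.19). The sum of the markers thus hides unequal falls. The 5 melanin synthesis genes summed to 0.667 to 2.29 in albino and 32.5 to 44.6 CPM in normal fish on the same scale. Of 6 genes of pteridine synthesis, which marks yellow and red pigment cells of fish, 6 fell, with 0.667 to 1.12 CPM in albino and 112 to 207 in normal fish, and GCH1 GS_005903 was at 0 in all albino fish. Of 3 keratin genes, 2 fell and KRT13 GS_014679 did not pass (adjusted p = 0.076). Their sum was 447 to 736 CPM in albino and 1270 to 2160 in normal fish. Nearly all of it was KRT13 GS_014679, with means of 578 and 1600 CPM in albino and normal fish. The genes that fell, KRT13 GS_018838 (1.64 and 6.43) and KRT18 (0.317 and 7.87), added little. Of 4 muscle genes, METTL21C rose (log2 fold change 1.23, adjusted p = 0.037, called only without PO_alb2 when a library was left out). DES, TNNT2 and MUSTN1 did not pass. MUSTN1 (adjusted p = 0.066 from edgeR) passed with library totals alone (0.031), no filter (0.036), DESeq2 (9.1e-05) and limma (0.023 and 0.021). It did not with RLE scaling (0.063), a minimum of 10 counts (0.064) or a replicate block (0.16). DES passed only with DESeq2 (0.027). The sum of the 4 was 1810 to 2570 CPM in albino and 662 to 1330 in normal fish. Nearly all of it was DES (adjusted p = 0.33 from edgeR), with means of 2080 and 1030 CPM in albino and normal fish. METTL21C had means of 39.1 and 16.6 CPM. None of the keratin and muscle genes was at 0. The part of keratin and muscle RNA in the differences of the 5 genes was not tested.

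The 5 genes were also set against SOX10 and MLANA within each library, a comparison chosen after the data were seen. Which cells held the SOX10 RNA was not tested. Per length, the summed RPKM of the 5 genes was 39.2%, 12.7% and 31.8% of that of SOX10 in albino fish 1 to 3, against 229%, 195% and 218% in normal fish. The groups did not overlap (exact two-sided permutation test, p = 0.1, the smallest possible, adjusted p = 0.15 over 12 ratios). TYR, both TYRP1 genes and OCA2 had a mean ratio to SOX10 in albino fish of 10.1% to 21.4% of that in normal fish, each without overlap. SLC45A2 was 6.97%, 1.87% and 7.85% of SOX10 in albino fish, against 7.50%, 12.1% and 10.6% in normal fish, and here the groups overlapped (p = 0.2, adjusted p = 0.267 in the exact permutation test).

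Against MLANA the albino mean of the summed level was 77.4% of the normal mean. The sum was 38.1%, 41.2% and 51.6% of MLANA in albino fish 1 to 3, against 51.9%, 56.7% and 60.3% in normal fish, a mean of 43.6% ± 7.05 in albino and 56.3% ± 4.22 in normal fish (SD, n = 3; exact permutation p = 0.1, adjusted p = 0.15). TYRP1 GS_009038 was 20.8%, 9.71% and 4.53% of MLANA in albino fish, against 21.4%, 25.3% and 24.4% in normal fish. TYRP1 GS_012029 was 9.27%, 19.9% and 25.5% in albino fish, against 23.2%, 23.3% and 26.6% in normal fish. By these values albino fish 1 was nearest to normal skin in GS_009038 and farthest from it in GS_012029. MLANA itself had only 25, 7 and 10 reads in albino fish 1 to 3, against 274, 246 and 389 in normal fish. No counting interval was computed for the ratios to MLANA, so differences between single albino fish are uncertain. SLC45A2 was higher relative to MLANA in albino fish, at 6.78%, 6.05% and 12.7%, against 1.70%, 3.53% and 2.94% in normal fish (exact permutation p = 0.1, adjusted p = 0.15). TYR and OCA2 overlapped between the groups in this ratio.

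The genes most alike to each member were found by Pearson's r across the 6 libraries on log2(TMM CPM + 1). The libraries fall into separate groups of 3, so r mostly follows the difference between the groups and is blind to its size, and it is given as a description. For TYR the highest values were those of XDH, which encodes xanthine dehydrogenase (0.9959), GS_013990 (0.9949) and the new gene Novel00653 (0.9948). TYRP1 GS_012029 was nearest to GCH1 GS_008748, an enzyme that starts pteridine synthesis (0.9978), followed by GS_020470 (0.9969) and GS_001154 (0.9962). TYRP1 GS_009038 was nearest to the keratin gene KRT13 GS_018838 (0.9987), GS_014594 (0.9986) and TRPM1 (0.9978). The genes nearest to OCA2 were GS_008296 (0.9923), GS_012413 (0.9908) and Novel00653 (0.9855), with log2 fold changes of -0.35, -0.95 and -6.17. Those nearest to SLC45A2 were GS_003735 (0.9966), GS_016109 (0.9878) and GS_017985 (0.9865), with -0.33, -2.22 and -1.56. A high r thus also occurred at small changes, among 16259 genes compared over 6 libraries. The added 1 CPM exceeded all albino levels of OCA2 (0.0513 to 0.107), SLC45A2 (0.103 to 0.427), TYR (0 to 0.21) and TYRP1 GS_012029 (0.308 to 0.769), which flattens them. For TYRP1 GS_009038 only albino fish 1 (1.23) was above 1 CPM, against 0.154 and 0.14 in albino fish 2 and 3. No member was among the 3 nearest genes of another member. Among the members themselves, r was highest between TYR and TYRP1 GS_012029 (0.9934), lower between the TYRP1 paralogs (0.9809), and lowest between OCA2 and SLC45A2 (0.8367).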

How the data were processed

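mRNA of ocular-side skin was measured in 3 albino and 3 normal fish, with 1 library for each fish. The authors built a Bowtie2 2.0.6 index of the flounder genome, aligned paired reads by TopHat2 2.0.9, assembled transcripts by Cufflinks 2.1.1 and counted reads by HTSeq. The deposited count table holds whole read counts without scaling. The deposited RPKM were made by the authors from these counts, and gene lengths, recovered from both tables for 20815 of 22498 genes, were whole numbers within 0.01 bases (97.9% multiples of 3, so coding lengths), for example 1482 bases for TYR and 2481 bases for OCA2. The strand setting is not given in the sources used here.

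Counts were tested by edgeR 4.0.16 in R 4.3.3 (filterByExpr, TMM, quasi-likelihood test, albino over normal, no other term). The study used DESeq, and it also listed SLC45A2, MC1R, MYO5A and KRT13 GS_014679 as lower, which did not pass here. SE is the log2 fold change divided by the square root of F, and 95% intervals use the t quantile of the fit. The common dispersion was 0.0475. P-values were adjusted over all 16260 genes tested, of which 1278 had an unadjusted p under 0.05, 148 were called lower and 21 higher. With library totals alone the median log2 fold change of all genes was -0.13, against 0.01 with TMM. Shares and ratios were compared by exact two-sided permutation tests over fish in Python 3.11.15 with scipy 1.17.1. The edgeR script was tested on simulated data.

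Text names the 5 members, genes of 5 lists from the paper's tables (melanosome, regulators, pteridine synthesis, keratin and muscle), and the 3 genes most alike to each member. The members and lists were chosen with earlier results of these data known. The ratios to SOX10 and MLANA were added after seeing the data. The labels give no pairing of fish, so fish were not paired. Deviations of same-numbered fish had r of -0.212, 0.188 and -0.499, against -0.32 to 0.481 between fish with different numbers. With 3 fish per group these values cannot exclude a pairing. No label says that fish were handled separately beyond 1 library each, so p-values measure the spread between these fish. Alternatives were RLE scaling, library totals alone, other filters, DESeq2 1.42.0, limma 3.58.1 on log2(RPKM + 1) and log2(RPKM + 0.1) for genes with a mean RPKM of at least 0.1, a replicate block and leaving out libraries.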

Additional observations from a re-analysis of the deposited data

How the results depend on the processing

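All 5 members kept a log2 fold change below 0 under every alternative run. The number of members called was 4 with RLE scaling, library totals alone or a minimum of 10 counts in 3 libraries, 5 with no filter or DESeq2, 3 with limma, and 2 to 4 with a library left out. OCA2 had a log2 fold change of -0.53 with limma on log2(RPKM + 1) (adjusted p = 0.23) and -2.13 with log2(RPKM + 0.1) (adjusted p = 0.10), where the pseudocount exceeds or is near its level. SLC45A2 was called only with no filter (-2.62) and with DESeq2 (-2.63). With a library left out, the log2 fold change ranged from -6.43 to -4.46 for TYR, -6.68 to -4.42 for TYRP1 GS_009038, -4.15 to -3.59 for OCA2 and -2.95 to -2.17 for SLC45A2. Over all genes, those called lower were 148 of 16260 with RLE scaling and 99 of 16260 with library totals alone. They were 153 of 16341 with the minimum of 10 counts, 166 of 20815 with no filter and 272 of 22498 with DESeq2. With limma they were 90 and 99 of 18068 on log2(RPKM + 1) and log2(RPKM + 0.1). With a library left out they were 67 to 138 of 16384 to 16574. Those called higher were 84 with DESeq2, 7 with library totals alone, 7 and 8 with limma on log2(RPKM + 1) and log2(RPKM + 0.1), and 2 to 14 with a library left out. The cause was not tested, and fits with a library left out also have fewer fish.

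With the replicate number as a block, which the labels do not give as a pairing, 1 member was called (TYRP1 GS_012029), and 53 genes were lower and 4 higher. The log2 fold changes were then -5.05 for TYR (adjusted p = 0.057), -5.05 for TYRP1 GS_009038 (0.054) and -3.78 for OCA2 (0.071), in fits with fewer residual degrees of freedom.

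With a library left out, the difference in share (percentage points, albino minus normal) ranged from -25.4 to 1.69 for GS_009038 among the TYRP1 genes, from -3.64 to 3.48 for TYR in the sum of the 5 genes (0.0263 without PO_con3) and from -6.96 to 5.59 for TYRP1 GS_012029, which reached 3.48 and 5.59 without PO_alb1. The ratio of TYR to MLANA turned to 0.978 without PO_alb1 (range -2.70 to 0.978). The shares of TYRP1 GS_009038 (-25.9 to -2.96), OCA2 (0.994 to 2.11) and SLC45A2 (11.5 to 16.4) in the sum kept their sign. Ranked only among genes with at least 1 read, the median percent of genes above rose by construction. For TYR the median was 69.0 in normal fish. Albino fish 2 and 3 stood at 98.1 and 92.0 for TYR, and albino fish 1 had no TYR read. In albino and normal fish the median was 93.2 and 32.5 for TYRP1 GS_009038, and 85.8 and 30.9 for TYRP1 GS_012029. It was 99.3 and 82.4 for OCA2, and 88.7 and 74.2 for SLC45A2. Ranked by reads without length it was 79.4 in albino and 65.1 in normal fish for OCA2, and 60.7 in normal fish for SLC45A2. Depth limits TYR and OCA2 most, with 4 albino reads each.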
